A study of Montastraea cavernosa with 311 samples.

Results

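The comparison described here is that of transplanted colonies of the coral Montastraea cavernosa with mesophotic control colonies at the time label 12 (12 and 6 stand for the labels' own words, whose unit is not given). It took in 6 transplant libraries, 3 from WFGB and 3 from EFGB, and 6 mesophotic control libraries, 5 from WFGB and 1 from EFGB, out of 311 libraries in the series. Libraries with fewer than 20000 host counts were set aside, which removed EFGB transplant replicate 3 (15536 host counts) and left 5 transplants and 6 mesophotic controls. The samples were chosen by their site, arm and time labels and not by any measured value. The series compared natural colonies from shallow and mesophotic reefs at 4 sites, and followed a manipulative depth experiment through time at WFGB and EFGB. The labels give no genotype or treatment beyond arm, site and time. They do not say to which depth colonies were moved, and the baseline libraries of the transplanted colonies are labelled mesophotic. The 9 shallow control libraries at the same time label, 5 from WFGB and 4 from EFGB, are given as a further reference. Each library is a count of short 3′ tags per isogroup, a cluster of assembled transcripts, and host levels are given as CPM, counts scaled to a common host total per library.

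Montastraea cavernosa is a massive reef coral that lives from shallow water down to mesophotic reefs, where light is dim. Its tissue houses dinoflagellate algae, here Cladocopium, which fix carbon by photosynthesis and pass sugars and lipids to the animal. A coral moved to another depth meets a different light climate, and its stock of algae, its mitochondrial respiration and its handling of reactive oxygen are the processes usually followed after such a move. In bulk samples, fewer cells of a type and less RNA per cell cannot be told apart.

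Depth and complexity of the libraries went with the arms. The 5 transplants had 213621 to 731088 host counts, and the 6 mesophotic controls had 25221 to 227307. At an equal depth of 20000 host counts, the expected number of host isogroups was 1734, 862 and 772 in WFGB transplants 1 to 3 and 1600 and 907 in EFGB transplants 1 and 2. It was 3411, 1858, 3404, 3124 and 3389 in WFGB mesophotic controls 1 to 5, and 736 in the only EFGB mesophotic control. The difference, transplant minus control with site as a covariate, was -0.92 ± 0.45 (SE) on the log2 scale, with a 2-sided exact permutation p of 0.0952 within sites. With WFGB alone it was -1.50 (exact permutation p = 0.0179, the smallest that 3 against 5 libraries allow). Without the EFGB mesophotic control it is the same by design, since EFGB then holds transplants only. Without EFGB transplant 1 it was -1.12 (exact permutation p = 0.0268). Library batches inferred from repeats of barcode pairs also differed, since WFGB mesophotic controls 3 to 5 and no transplant were in barcode run 12. Their part in the results was not tested, and arm, depth of counting and complexity cannot be told apart in most of these libraries. A zero in a deeply counted library of low complexity therefore sets no tight limit, since it is not known here whether copies made by amplification were removed.

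**Figure D1:**
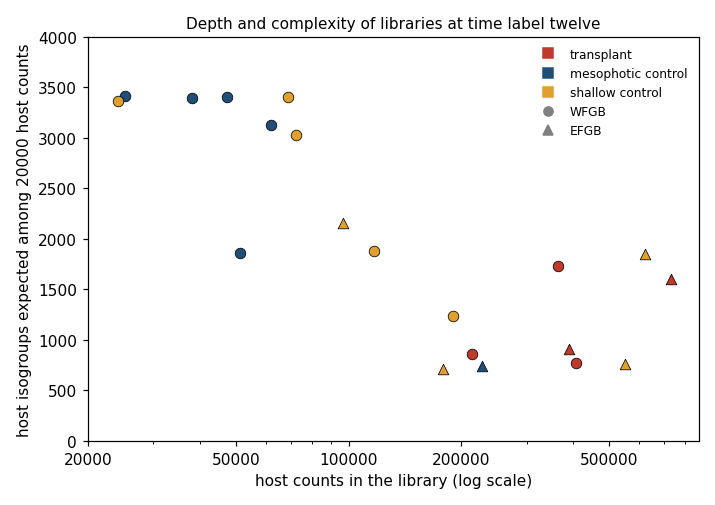
Host counts per library (x, log scale) against the host isogroups expected among 20000 host counts (y) at time label 12, with colours for arms and symbols for sites. The 5 transplants lie at the right, between 772 and 1734 isogroups, and 4 of the 5 WFGB mesophotic controls lie at the upper left, with 3124 or more.

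The share of symbiont counts was low in most transplants. It was 13.8%, 0.550% and 0.486% in WFGB transplants 1 to 3, and 3.92% and 0.403% in EFGB transplants 1 and 2. The mesophotic controls had 10.3%, 6.78%, 13.0%, 12.2% and 12.0% at WFGB and 9.51% at EFGB. Of the transplants, 4 fell below every mesophotic control and 1, WFGB transplant 1, lay above them all. The log2 odds of a symbiont count were lower by 2.91 ± 1.05 (SE) in transplants, and the 2-sided exact permutation test within sites gave p = 0.0357. The value without site as a covariate was -2.97 (exact permutation p = 0.0152), and with WFGB alone it was -2.86 (exact permutation p = 0.107). Within barcode run 11 it was -3.81. That run held WFGB transplants 2 and 3, WFGB mesophotic control 2 and the EFGB mesophotic control. With site as a covariate its only EFGB library adds nothing to the arm difference. Values within this run that use a site term therefore rest on WFGB mesophotic control 2 as the only control. Leaving out any 1 of 9 of the 11 libraries put the exact permutation p between 0.0536 and 0.107; only without WFGB transplant 1 or WFGB mesophotic control 2 did it stay under 0.05.

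The shallow controls at the same time label did not share one level. Those of WFGB had 8.71% to 14.6% symbiont counts, and those of EFGB had 1.75% to 7.56%. EFGB transplant replicate 3, left out of the host test for its low depth, had 5.96%. Exact binomial 95% intervals, which cover counting error only, reached no more than 0.372 percentage points to either side for these transplants and mesophotic controls.

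Title tags that recur between time labels were read as colonies, and they allowed each colony to be followed from its baseline. In WFGB transplant 2 the symbiont share was 7.68% at baseline, 2.71% at time 6 and 0.550% at time 12. In WFGB transplant 3 it was 37.99%, 5.15% and 0.486%, although its baseline library held only 14150 host counts. WFGB transplant 1 went from 38.2% to 8.19% and then back up to 13.8%, and EFGB transplant 1 from 12.8% to 7.37% and 3.92%. All 4 transplanted colonies with a baseline thus ended below it.

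Among the 6 mesophotic control colonies the baseline shares were 5.36% to 28.9%, and those at time 12 were 6.78% to 13.0%. The 5 with a library at time 6 all dipped there, to between 1.84% and 9.93%, and all of them were higher again at time 12. The change in log2 odds from baseline to time 12 was -1.94, -3.91, -6.97 and -1.85 in the 4 transplants, and from -1.55 to 0.89 in the controls. These ranges did not overlap, with a difference of -3.78 ± 0.98 (SE), and the exact permutation p of 0.00893 was the smallest the design allows. This measure was chosen after the shares had been seen. Without WFGB transplant 3 the difference was -2.72 (exact permutation p = 0.0238).

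**Figure D2:**
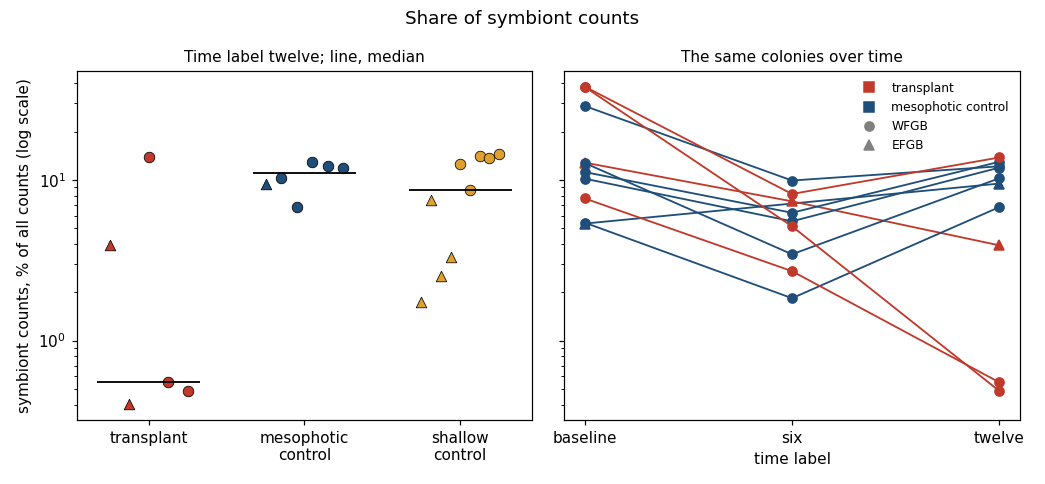
Symbiont counts as a percentage of host plus symbiont counts (y, log scale). The left panel gives the kept libraries of each arm at time 12 with the median as a line, and the right panel follows colonies from baseline to time 12. At time 12 3 transplants lie under 1%, and every mesophotic control lies between 6.78% and 13.0%; the EFGB control colony has no library at time 6.

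In the host, 1231 isogroups were tested and 11 were called at an adjusted p of 0.05 (0.894%), with edgeR's quasi-likelihood test and Benjamini-Hochberg adjustment. Only 2 were higher in transplants (0.162%) and 9 were lower (0.731%). At an unadjusted p under 0.05 there were 46 higher and 144 lower. The median log2 fold over all tested isogroups was -0.21, or -0.32 when libraries were scaled by host total alone. The count of calls depended on the model, from 0 higher and 0 lower when all experiment libraries with a time label shared one fit to 39 higher and 232 lower with DESeq2. Without WFGB transplant 2 it was 1 and 1, and without EFGB transplant 1 it was 13 and 147.

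The most abundant of the called isogroups was Mcavernosa30572, a core subunit of cytochrome c oxidase. This enzyme is the terminal complex of the mitochondrial respiratory chain, where electrons are passed to oxygen, and the deposited name describes its catalytic subunit. Its level was 21611, 80577 and 55118 CPM in WFGB transplants 1 to 3, and 19705 and 78484 CPM in EFGB transplants 1 and 2. In the WFGB mesophotic controls it was 9992, 16295, 4473, 4266 and 3235 CPM, and in the EFGB one 10277 CPM. Every kept transplant lay above every mesophotic control.

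The means for cytochrome c oxidase were 51099 ± 29539 CPM (SD, n = 5) in transplants and 8090 ± 5040 CPM (SD, n = 6) in mesophotic controls. The log2 fold was 2.80 ± 0.54 (SE), with an edgeR adjusted p of 0.000931. The 9 shallow controls ranged from 3283 to 35279 CPM with a median of 12758, and so overlapped the transplants. Among 7 control libraries of either depth with fewer than 2000 isogroups at 20000 counts, Mcavernosa30572 had a median of 13293 CPM, against 5281 CPM in the 8 with more. The transplant left out for depth had 12358 CPM, between the groups' means and within the mesophotic controls' range of 3235 to 16295 CPM. With libraries of fewer than 2000 isogroups only, 5 transplants and 2 mesophotic controls, the log2 fold was 2.12 (edgeR adjusted p = 0.136). Within barcode run 11 it was 1.72, resting on WFGB mesophotic control 2 as the only control.

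Followed by colony, Mcavernosa30572 was highest at time 12 in all 4 transplants that have earlier libraries. It went from 4844 to 24543 and 80577 CPM in WFGB transplant 2, and from 2827 to 20684 and 55118 CPM in WFGB transplant 3. In WFGB transplant 1 it was 3456, 1360 and 21611 CPM, and in EFGB transplant 1 5896, 4708 and 19705 CPM. In the 5 WFGB mesophotic control colonies it was 4637 to 12219 CPM at baseline, 1628 to 39174 CPM at time 6 and 3235 to 16295 CPM at time 12. The EFGB control colony had 463 CPM at baseline and 10277 CPM at time 12, so a rise of that size also occurred in a colony that was not transplanted.

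The other mitochondrial isogroup among the calls moved the opposite way. Mcavernosa30570 is named as a core subunit of complex I (NADH dehydrogenase), the entry point of the respiratory chain. It stood at 263, 206 and 93.5 CPM in WFGB transplants 1 to 3, and 269 and 159 CPM in EFGB transplants 1 and 2. The WFGB mesophotic controls had 2458, 683, 6403, 3329 and 14043 CPM, and the EFGB one 2908 CPM. The groups did not overlap, and the log2 fold was -4.49 ± 1.03 (SE, edgeR adjusted p = 0.00999).

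The level of Mcavernosa30570 went with library complexity outside the transplants. Its median was 627 CPM in the 7 control libraries with fewer than 2000 isogroups and 5254 CPM in the 8 with more, with ranges of 134 to 2908 and 2458 to 14043 CPM. The transplant left out for depth had 6501 CPM, among the mesophotic controls. At time 6, 2 WFGB mesophotic control colonies stood at 50.1 and 76.6 CPM, as low as the transplants at time 12. With low-complexity libraries only, the log2 fold was -2.64 (edgeR adjusted p = 0.857). Within barcode run 11, resting on a single control, it was -2.51.

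**Figure D3:**
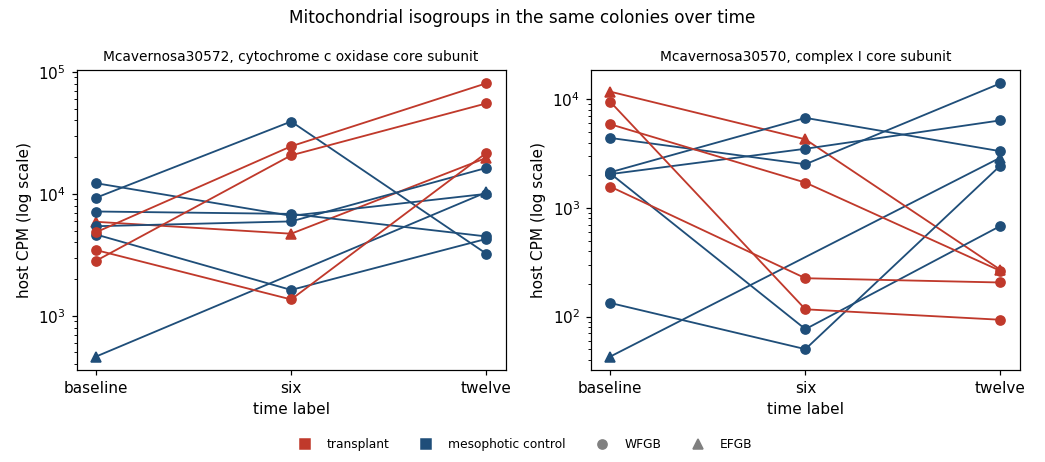
Host CPM (log scale) of the cytochrome c oxidase subunit Mcavernosa30572 and the complex I subunit Mcavernosa30570 in the same colonies at baseline, time 6 and time 12. In the left panel the 4 transplant lines end at 19705 to 80577 CPM, above all controls, and in the right panel they end at 93.5 to 269 CPM, below all controls, while 2 control lines pass through 50.1 and 76.6 CPM at time 6.

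Of 59 respiratory chain and ATP synthase isogroups in the table, 8 were tested, 5 with a positive and 3 with a negative log2 fold, and 1 was called higher and 1 lower. The list as a whole held 29600 to 86799 CPM in transplants, 13335 to 20644 CPM in mesophotic controls and 10280 to 44320 CPM in shallow controls. In transplants most of that total was Mcavernosa30572 itself. Positive folds that did not pass included cytochrome c oxidase subunit VIb (Mcavernosa11724) at a log2 fold of 1.52 ± 0.79 (SE, edgeR adjusted p = 0.329) and subunit IV (Mcavernosa11282) at 3.17 ± 1.97. A further complex I core subunit, Mcavernosa30573, had a log2 fold of -4.40 ± 2.71 (edgeR adjusted p = 0.416), and a cytochrome c oxidase assembly protein (Mcavernosa05935) -3.36 ± 2.71 (edgeR adjusted p = 0.598).

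The smallest p of all belonged to Mcavernosa12077, an isogroup without a deposited name. It had 1860, 28981 and 18052 CPM in WFGB transplants 1 to 3, and 27057 and 14507 CPM in EFGB transplants 1 and 2. The WFGB mesophotic controls had 1031, 312, 509, 1244 and 342 CPM, and the EFGB one 5125 CPM, above WFGB transplant 1. Its log2 fold was 3.99 ± 0.70 (SE, edgeR adjusted p = 0.000251). Within barcode run 11, resting on a single control, it was 5.90. Control libraries of low complexity reached 10856 CPM, those of high complexity no more than 1745 CPM, and the transplant left out had 515 CPM. At time 6, mesophotic control colonies 1 and 2 of WFGB stood at 15490 and 15329 CPM, within the transplants' range at time 12. The other WFGB control colonies then had 383 to 6051 CPM. At baseline the EFGB control colony had 17731 CPM, and the WFGB control colonies 1159 to 5915 CPM.

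The lower calls with a name began with a transferrin. Mcavernosa02133 carries a transferrin domain, which in animals binds and carries iron. It had 1 count in each EFGB transplant and none in the 3 WFGB transplants, or 0 to 2.56 CPM. The mesophotic controls had 555, 1112, 212, 355 and 552 CPM at WFGB and 2767 CPM at EFGB. The 2 counts over the summed transplant libraries put its level 975-fold below the control mean, with an interval of 269.9-fold to 8049-fold that covers counting error only. Without the EFGB control the value was 587-fold. The fitted log2 fold was -9.89 ± 2.14 (SE, edgeR adjusted p = 0.00561).

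In the low-complexity mesophotic controls Mcavernosa02133 stood at 1112 and 2767 CPM, and in the low-complexity shallow controls at 0, 6.43, 33.5, 342 and 1285 CPM. It was at 0 in the left-out transplant, where 1 count would be worth 64.4 CPM. The shallow controls ran from 0 to 1285 CPM with a median of 62.0. In the transplanted colonies it had stood at 1604 to 2566 CPM at baseline and 350 to 1602 CPM at time 6, so the low level came after time 6 in all 4. Zero or near zero levels also occurred in controls: 0 CPM at baseline in the EFGB mesophotic control colony, and 0 and 11.2 CPM at time 6 in WFGB mesophotic colonies 2 and 1. With low-complexity libraries only, the log2 fold was -10.63 (edgeR adjusted p = 0.857), a setting with 2 controls that called nothing. Within barcode run 11, resting on a single control, it was -11.30.

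The remaining named calls were rare transcripts. SPT2 domain containing 1 (Mcavernosa09699), a histone chaperone in other animals, had no count in the 5 transplants and 52.6 to 941 CPM in the mesophotic controls. Taking 3 counts over the summed transplants as the floor, it was at least 261-fold lower (edgeR adjusted p = 0.0293). This bound and those that follow cover counting error only and take each count for a separate molecule, which is not known here. Sacsin (Mcavernosa09333), a very large protein with chaperone-like domains, was at least 328-fold lower (edgeR adjusted p = 0.0264), with 0 to 1276 CPM in controls, and at least 215-fold without the EFGB control. RAS and EF-hand domain containing (Mcavernosa33584), a small GTPase with a calcium-binding hand, was at least 112-fold lower (edgeR adjusted p = 0.0264), with 0 to 370 CPM in controls. The shallow controls lacked any count of these 3 in 5, 6 and 5 of 9 libraries respectively. At time 6 SPT2 domain containing 1 had no count in any WFGB mesophotic control colony or followed transplanted colony. Sacsin had none then in the WFGB mesophotic colonies other than colony 3, which had 218 CPM. In the transplanted colonies it had no count at baseline, and at time 6 it reached 1009 CPM in WFGB transplant 1. RAS and EF-hand domain containing had none at time 6 in the WFGB mesophotic colonies other than colony 4, at 191 CPM.

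The other 4 lower calls carry no name. Mcavernosa22098 was at 0 in all 5 transplants and at 323 to 1346 CPM in the mesophotic controls, at least 442-fold lower (edgeR adjusted p = 0.00999). Among shallow controls it was at 0 in 5 of 9 libraries, and the left-out transplant had 257 CPM. The zeros of Mcavernosa22098 in controls went with complexity. It was at 0 in 5 of 7 low-complexity control libraries, all of them shallow, and had 124 CPM or more in the 8 of high complexity. All 5 transplants were of low complexity. Mcavernosa15519 was at least 154-fold lower and Mcavernosa00510 at least 854-fold lower (edgeR adjusted p = 0.0264 for each), the latter with 82.5% of its summed CPM in WFGB mesophotic control 3. Without the EFGB control the bound for Mcavernosa15519 was 99.7-fold, and without WFGB mesophotic control 3 that for Mcavernosa00510 was 179-fold. In low-complexity control libraries Mcavernosa00510 was at 0 in 4 of 7 and reached 78.1 CPM, and the 8 of high complexity had 41.3 CPM or more. Mcavernosa10282 had 0 to 11.0 CPM in transplants against 84.8 to 2127 CPM (edgeR adjusted p = 0.0382).

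**Figure D4:**
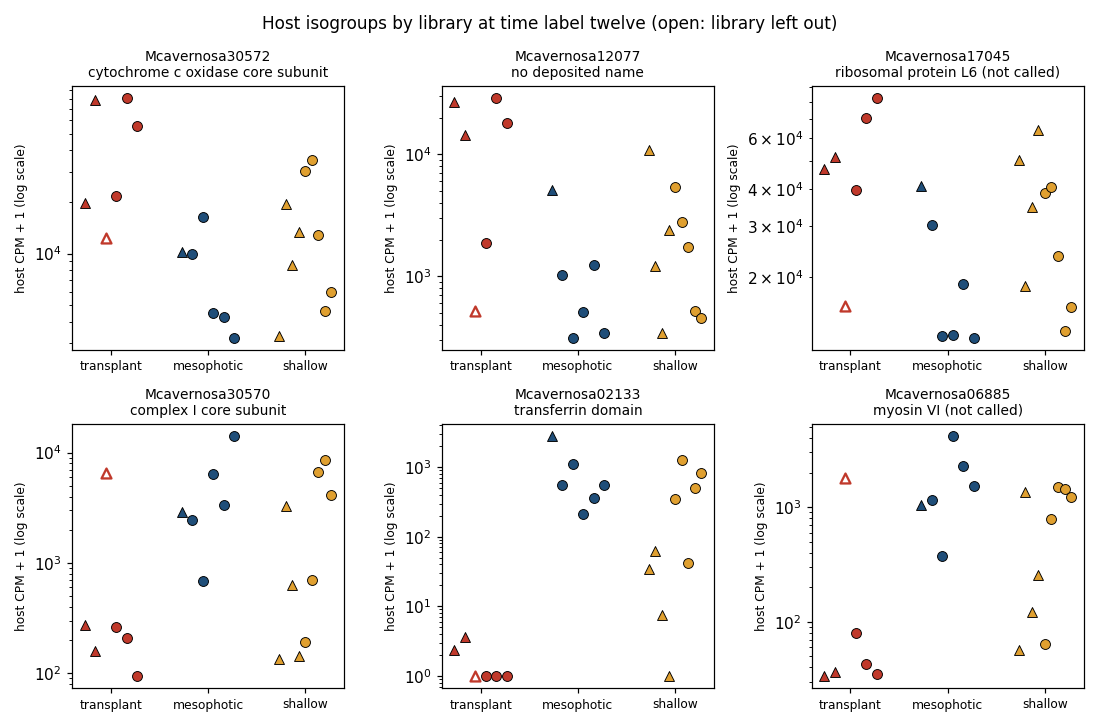
Host CPM plus 1 (log scale) of 6 isogroups in each library at time label 12, by arm, with triangles for EFGB and circles for WFGB. Open symbols mark the transplant with 15536 host counts that was left out. In cytochrome c oxidase, Mcavernosa12077, ribosomal protein L6, complex I and myosin VI it lies among the controls. In the transferrin isogroup it lies at 0 with the other transplants.

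In 10 of the 1231 tested isogroups every transplant lay above every mesophotic control (0.812%), and in 38 every transplant lay below (3.09%). Beside cytochrome c oxidase, those above held nitric oxide synthase interacting protein (Mcavernosa05562), with 1045 to 2808 CPM against 0 to 289 CPM. They also held the cation-dependent mannose-6-phosphate receptor (Mcavernosa22163), which sorts enzymes to lysosomes, with 313 to 2022 CPM against 0 to 119 CPM. An ADAMTS metallopeptidase (Mcavernosa13270), of a family that cuts extracellular matrix, had 370 to 2215 CPM against 0 to 119 CPM. None of these 3 passed (edgeR adjusted p = 0.0976, 0.0976 and 0.0992), and shallow controls reached 1403, 1044 and 1341 CPM. At time 6, Mcavernosa05562 stood at 1801, 1939 and 2478 CPM in WFGB mesophotic control colonies 1, 2 and 5. Mcavernosa22163 stood at 1225 and 732 CPM in colonies 2 and 5, and Mcavernosa13270 at 2353 CPM in colony 1. The remaining WFGB mesophotic colonies then lay below the transplants' range for each. At baseline Mcavernosa05562 had 1874 CPM in the EFGB control colony and 133 to 1401 CPM in the WFGB control colonies. Mcavernosa13270 had 2457 CPM and 133 to 2227 CPM in these, and Mcavernosa22163 283 CPM and 0 to 363 CPM. A cathepsin (Mcavernosa22587), a lysosomal protease, had 348 to 2408 CPM against 0 to 339 CPM (edgeR adjusted p = 0.193).

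The separated isogroups on the lower side included structural proteins. Myosin VI (Mcavernosa06885), a motor that walks on actin, had 32.8 to 79.6 CPM in transplants and 371 to 4134 CPM in mesophotic controls (log2 fold -5.01 ± 1.45, edgeR adjusted p = 0.0709). Hemicentin (Mcavernosa03492), an extracellular matrix protein, had 0 to 4.68 CPM against 63.6 to 1764 CPM (edgeR adjusted p = 0.0626). A von Willebrand factor type A domain (Mcavernosa12904), a module of adhesion proteins, had 0 to 5.49 CPM against 58.5 to 911 CPM. Dysferlin (Mcavernosa05617), a membrane repair protein in muscle of mammals, had 0 to 2.74 CPM against 13.2 to 403 CPM. Filamin A (Mcavernosa25157), an actin crosslinker, had the opposite sign with 308 to 4231 CPM against 13.2 to 1327 CPM (edgeR adjusted p = 0.115) and overlapped. In myosin VI, 7 control libraries of low complexity had a median of 253 CPM and the 8 of high complexity 1465 CPM, and the left-out transplant had 1802 CPM.

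Cytosolic ribosomal proteins, which build the translation machinery, were the largest tested list. Of 49 members tested, 39 had a positive log2 fold, beside 576 of 1231 over all isogroups. The list median was 0.74 beside -0.21 over all isogroups. By edgeR 0 were called, with 5 higher and 2 lower at an unadjusted p under 0.05. With limma, which called 11 of all isogroups higher (0.894%) and 25 lower (2.03%), 25 of the 49 were positive with a median of 0.15 and 1 was called higher, beside 388 of 1231 positive and a median of -0.96 over all isogroups. The most abundant, ribosomal protein L6 (Mcavernosa17045), had 39820, 70630 and 82614 CPM in WFGB transplants 1 to 3 and 47076 and 51926 CPM in EFGB transplants 1 and 2. The mesophotic controls had 30213, 12528, 12551, 18922 and 12334 CPM at WFGB and 41019 CPM at EFGB. Its log2 fold of 1.59 ± 0.47 (SE) did not pass (edgeR adjusted p = 0.0793), and the control libraries of low complexity had a median of 40729 CPM. A different abundant isogroup named only ribosomal protein (Mcavernosa01208) had a log2 fold of -2.06 ± 0.84 (edgeR adjusted p = 0.224).

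Antioxidant and redox enzymes, which detoxify reactive oxygen, had 0 calls among 11 tested isogroups, with 7 positive and 4 negative folds. Their summed level was 6020 to 12942 CPM in transplants and 3086 to 8170 CPM in mesophotic controls, ranges that overlapped. Thioredoxin reductase (Mcavernosa13532) had the smallest p, with no count in the 5 transplants and 0 to 509 CPM in controls (edgeR adjusted p = 0.0976). Of chaperones and protein folding genes, 23 were tested and 0 called, with 9 positive folds, and a DnaJ domain isogroup (Mcavernosa15808) had a log2 fold of -6.73 ± 2.75. Among iron, heme and metal binding isogroups 2 were tested, and heme binding protein 2 (Mcavernosa02815) was at 0 to 1432 CPM against 0 to 198 CPM (edgeR adjusted p = 0.329). The transferrin isogroup, called lower, was not in this list, since lists were filled by words in the deposited names.

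Genes of light sensing, immunity and symbiosis gave no call. Of 19 fluorescent protein and light sensing isogroups only cryptochrome (Mcavernosa10901), a blue-light receptor, was tested, at 0 to 5173 CPM against 0 to 1616 CPM (edgeR adjusted p = 0.804). Innate immunity had 8 tested and 3 positive folds, led by a C-type lectin (Mcavernosa02857) at -3.77 ± 2.31. Lectins of this family bind sugars on microbes. The symbiont nutrient and sterol exchange list had 2 tested, calcification 3, apoptosis and autophagy 6, and glycolysis and the citric acid cycle 5. All 6 of apoptosis and autophagy had a negative fold, beside 655 of 1231 over all tested isogroups. With limma and the number of detected isogroups as a covariate, 1 of the 6 was positive. Autophagy related 5 (Mcavernosa00943) had no count in the transplants and 0 to 195 CPM in controls (edgeR adjusted p = 0.0976). Malate dehydrogenase (Mcavernosa19235), of the citric acid cycle, had a log2 fold of 1.99 ± 0.84 (edgeR adjusted p = 0.225). A bone morphogenetic protein receptor (Mcavernosa10300), of the calcification list, had 3.17 ± 2.12, and a TauD family dioxygenase (Mcavernosa35150), of the exchange list, 3.15 ± 1.87.

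The larger lists of cell structure also had 0 calls by edgeR, though other settings made some. With limma 1 was higher and 3 lower in extracellular matrix, 1 and 2 in muscle and actin, 1 higher in peptidases and 1 lower in histones. With RLE scaling in edgeR, which called 2 of all isogroups higher (0.162%) and 12 lower (0.975%), 1 was lower in muscle and actin. Extracellular matrix and adhesion had 28 tested and 11 positive, muscle and actin cytoskeleton 23 and 10, lipid and sterol metabolism 22 and 11, and peptidases 19 and 12. Translation factors had 19 tested and 9 positive, RNA helicases and splicing factors 19 and 9, proteasome and ubiquitin 17 and 10, histones and chromatin 12 and 4, and DNA replication and repair 7 and 3. The histone chaperone isogroup Mcavernosa09699, called lower, was not matched to the list of histones and chromatin. Members with the smallest p in these lists were a SWI/SNF chromatin remodeller (Mcavernosa28311, log2 fold -8.16, edgeR adjusted p = 0.0709) and a cytosolic phospholipase A2 (Mcavernosa09570, log2 fold -4.57, edgeR adjusted p = 0.279). The others were a subunit of translation initiation factor eIF2 (Mcavernosa08366) at a log2 fold of -4.32, a ubiquitin hydrolase (Mcavernosa19690) at -7.06, the Werner helicase interacting protein (Mcavernosa12054) at -5.27 and a DNA replication checkpoint gene (Mcavernosa01637) at -2.54.

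Markers of the coral's cell types were read for a shift in tissue makeup. Neuron markers had 10 tested and 3 positive, cilia and microtubules 26 and 15, germ line 5 and 2, and nematocytes and toxins 1 and 0, with 0 calls; mucus and gland markers had 0 of 28 tested. Summed neuron markers were 1820 to 4817 CPM in transplants and 3620 to 6423 CPM in mesophotic controls, and summed cilia genes 7203 to 12085 and 11124 to 15540 CPM. These ranges overlapped. The cytolysin named sea anemone cytotoxic protein (Mcavernosa18854), a toxin of stinging cells, had a log2 fold of -0.54 ± 0.73, and an inwardly rectifying potassium channel (Mcavernosa07242) of the neuron list -5.52 ± 3.32. A piwi-like isogroup (Mcavernosa21955), of the germ line RNA-silencing family, had 0 to 5.47 CPM against 0 to 985 CPM (edgeR adjusted p = 0.0976), and an axonemal dynein heavy chain (Mcavernosa31954), the motor of cilia, 0 to 8.23 CPM against 8.80 to 2120 CPM (edgeR adjusted p = 0.205).

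**Figure D5:**
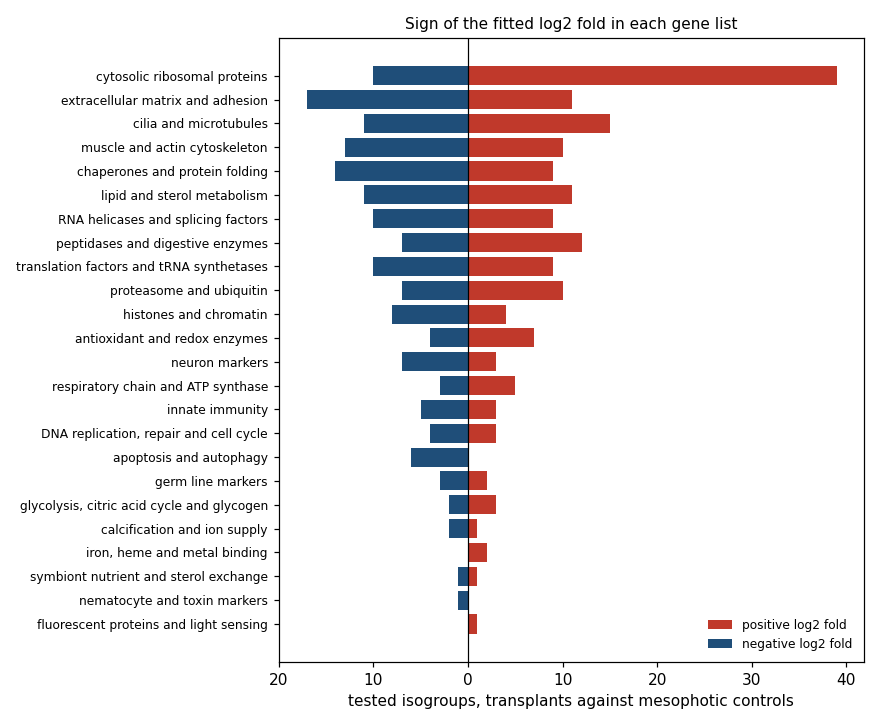
Number of tested isogroups in each gene list with a positive (right) or negative (left) fitted log2 fold, transplants against mesophotic controls. Ribosomal proteins have 39 positive and 10 negative folds, extracellular matrix and adhesion 11 and 17, beside 576 and 655 over all tested isogroups. Among all lists only the respiratory chain holds calls, 1 in each direction. The transferrin isogroup and SPT2 domain containing 1, both called lower, were matched to no list by the words in their names.

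Of the most abundant host isogroups, 2 with no call remain. Mcavernosa33295, without a name, had 29.5 to 28386 CPM in transplants and 8583 to 77368 CPM in mesophotic controls (log2 fold -1.68 ± 1.10, edgeR adjusted p = 0.476). Mcavernosa26831, named for C/EBP alpha, a transcription factor of metabolism in mammals, had a log2 fold of 0.67 ± 0.54 (edgeR adjusted p = 0.595).

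A difference of the transplant effect between the banks was called in 1 of 1231 isogroups (0.0812%), by an interaction term in edgeR whose EFGB control arm is 1 library, assumed to vary like the others. Mcavernosa00553, which has no name, had 1536, 1554 and 1805 CPM in the WFGB transplants and none in EFGB transplants 1 and 2. Its WFGB mesophotic controls had 254 to 634 CPM, and the single EFGB one 6537 CPM. The fitted EFGB effect minus the WFGB effect was -15.78 (log2 scale, edgeR adjusted p = 0.00197). With both EFGB transplants at 0 that size depends on the prior count and is no bound, and it cannot be told apart from the level of the 1 EFGB control library.

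Isogroups that differ with depth in natural colonies were looked up in the transplants. Natural libraries outside the experiment, 97 mesophotic and 132 shallow, gave 53 calls among 6654 isogroups with limma (0.797%), 4 higher and 49 lower in mesophotic colonies. Of the 49, 17 were tested in transplants, 10 had a positive and 7 a negative log2 fold, and 0 were called. Their median log2 fold was 0.07, beside -0.21 over all tested isogroups. With edgeR, which called 777 of 4301 natural isogroups (18.1%), 514 were lower in mesophotic colonies and 54 of those were tested in transplants. Of these 54, 23 had a positive and 31 a negative log2 fold, 0 were called and the median was -0.50. The 263 that edgeR called higher in mesophotic colonies did not move the opposite way. Of the 29 tested in transplants, 12 had a positive and 17 a negative log2 fold, 0 were called and the median was -0.67. Of the 4 higher by limma, 1 was tested, at a log2 fold of -1.02. Heme binding protein 2 (Mcavernosa02815) was lower in mesophotic natural colonies by limma, at -1.04 ± 0.25 (adjusted p = 0.0139), and had a log2 fold of 4.13 ± 2.14 in transplants. The endoplasmic reticulum chaperone Grp94 (Mcavernosa03557) was lower in mesophotic natural colonies as well, at -1.30 ± 0.31 (limma adjusted p = 0.0139), with -0.42 ± 0.80 in transplants (edgeR adjusted p = 0.857).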

How the data were processed

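The authors deposited raw counts of 3′ tags per isogroup and library, host and symbiont in one table, and a lookup table of isogroup names. Which aligner and build were used, and whether duplicate reads were removed, is not given in the sources used here, and 1 column without a sample or any value was not used. Host isogroups (17901, of which 12005 are named) were scaled within the host total, and libraries under 20000 host counts were left out. edgeR 4.0.16 (R 4.3.3) with TMM, filterByExpr and robust quasi-likelihood fitted arm and site at an adjusted p of 0.05. limma 3.58.1 (log2 CPM, prior count 2) and DESeq2 1.42.0 were alternatives. The edgeR and limma fits were tested on simulated data with known folds, and the DESeq2 fit was not. Expected isogroups at 20000 counts were computed by rarefaction. Symbiont shares were compared with 2-sided exact permutation tests on arm within sites (SciPy 1.17.1).

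Genes were named by a rule: called isogroups with an informative name, counts in at least 6 libraries and at most 50% of CPM in 1 library, filled to 6 in each direction by smallest p, the smallest p of each list and the 5 most abundant. Other calls were added after their values were seen. Members, tests and the 25 gene lists, filled by words in the deposited names, were chosen with earlier results of these data known, and a few wrong word matches were removed after values had been seen. Replicates were numbered in accession order. P-values measure the spread between these libraries. Alternatives were other scalings, filters, tools, site and batch subsets and leaving out each library.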

Additional observations from a re-analysis of the deposited data

Results flagged for a closer look

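Among 88 groups of 5 transplant or 6 mesophotic control values, 22 had a highest or lowest value far from the rest by Dixon's test, where chance gives about 1 in 20; the values share libraries and many are near 0. WFGB transplant 1 stood apart with 13.8% symbiont counts, against 0.403% to 3.92% in the other transplants.

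Among mesophotic controls the highest library stood apart for the transferrin isogroup Mcavernosa02133 (2767 CPM), the unnamed Mcavernosa12077 (5125 CPM), Mcavernosa15519 (603 CPM) and Mcavernosa22098 (1346 CPM), hemicentin (1764 CPM), malate dehydrogenase (5279 CPM) and piwi-like (985 CPM), each time the EFGB control. It also stood apart for Mcavernosa00510 (6021 CPM in WFGB control 3), for filamin A (1327 CPM), Mcavernosa10300 (234 CPM) and the potassium channel Mcavernosa07242 (1210 CPM) in WFGB control 2, and for phospholipase A2 (552 CPM) in WFGB control 5.

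Among transplants the highest value stood apart for myosin VI (79.6 CPM), the von Willebrand factor type A domain (5.49 CPM), dysferlin (2.74 CPM) and heme binding protein 2 (1432 CPM) in WFGB transplant 1. The same held for hemicentin (4.68 CPM) and Mcavernosa01637 (42.1 CPM) in WFGB transplant 2, the ubiquitin hydrolase Mcavernosa19690 (2.56 CPM) in EFGB transplant 2 and the DnaJ isogroup Mcavernosa15808 (1.37 CPM) in EFGB transplant 1. Malate dehydrogenase was lowest at 1114 CPM in WFGB transplant 2.

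An interaction term called the unnamed isogroup Mcavernosa00553 as differing between banks, with a fitted value of -15.78 on the log2 scale. Its EFGB arm holds 1 control library and both EFGB transplants at 0, so the size is no bound.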

How the results depend on the processing

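The main counts were 2 higher and 9 lower host isogroups. No filter on low counts, all experiment libraries with a time label in one fit, a minimum of 50000 host counts, and libraries of low complexity only (added after seeing the data) each gave 0 higher and 0 lower by edgeR, with 2630, 151, 55 and 39 isogroups at an unadjusted p under 0.05. DESeq2 gave 39 and 232 with 96 adjusted p-values missing, limma 11 and 25, limma with the number of detected isogroups as a covariate 1 and 7, no site term 4 and 48, and WFGB alone 16 and 145. At least 10 counts in 6 libraries gave 2 and 4, no minimum of host counts 2 and 1, and barcode run 11 without a site term (added) 0 and 1. With a site term that run rests on a single control, so its count of calls is left out. Leaving out 1 library gave 1 to 13 higher and 1 to 147 lower. Without WFGB transplant 2 or 3 there were 1 and 1, or 2 and 1; without the EFGB mesophotic control 2 and 2; without WFGB mesophotic control 1 or 4, 2 and 4 or 2 and 5; without WFGB transplant 1, 2 and 20; without EFGB transplant 1 or 2, 13 and 147 or 12 and 74. A fit without the 3 transplants under 1% symbiont counts was also run with edgeR after seeing the data and made no call; it was not retained, since it picks samples by a measured outcome. The cause was not tested. Cytochrome c oxidase (Mcavernosa30572) and Mcavernosa12077 kept a positive sign in 26 of 26 alternatives and passed in 18 and 20, with edgeR, limma or DESeq2 adjusted p up to 0.744; the transferrin isogroup (Mcavernosa02133) kept a negative sign in 26 and passed in 19.

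The lower symbiont share kept its direction but missed the threshold with WFGB alone (-2.86), at least 50000 host counts (-2.77), barcode run 11 (-3.81) and low-complexity libraries (-2.57, added), and leaving out 1 library gave -4.04 to -2.32. In barcode run 11, which rests on a single control beside the site term, the threshold could not be reached. Fewer host isogroups at equal depth passed with WFGB alone (-1.50) and without EFGB transplant 1 (-1.12). Without the EFGB mesophotic control the value is that of WFGB alone by design, since EFGB then holds transplants only. Leaving out 1 library gave -1.50 to -0.64. With limma 2 isogroups differed between banks in place of 1, and edgeR called 777 isogroups between natural depths in place of 53. Signs turned for uncalled genes only: cryptochrome (Mcavernosa10901) was -0.88 without WFGB transplant 2 and 2.27 without WFGB transplant 3, and up to 2.56 over all alternatives, and the sea anemone cytotoxic protein 0.00090 without a filter. In barcode run 11 without a site term Mcavernosa10300 was -0.52 (-1.54 with it), malate dehydrogenase (Mcavernosa19235) -0.30 and Mcavernosa26831 -0.17. No paired analysis was possible because replicate numbers were given in accession order and pair no samples across arms. That limit concerns pairs of a transplant with a control only. Within colonies, title tags linked libraries to their baselines, and the change in symbiont share from baseline was compared between arms. For host isogroups, levels were followed by colony, but a difference between arms in their change from baseline was not tested.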

Other observations

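Of the isogroups in which transplants and mesophotic controls did not overlap, 2 also did not overlap with the 9 shallow controls; they were looked for after the values had been seen, and neither was called. A dehydrogenase (Mcavernosa23966, no further name) had 532, 660 and 585 CPM in WFGB transplants 1 to 3 and 410 and 712 CPM in EFGB transplants 1 and 2, from 141 to 300 counts each. It had 63.6 CPM in WFGB mesophotic control 3, from 3 counts, 0 in the other 5 mesophotic controls, and at most 41.5 CPM in shallow controls. In control libraries of low complexity its highest level was 16.8 CPM, and the left-out transplant had 129 CPM from 2 counts. In the same colonies as the transplants it was at 0 in all 4 libraries at time 6, and at 0 to 167 CPM at baseline. The log2 fold was 6.19 ± 2.16 (SE, edgeR adjusted p = 0.123).

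A RasGEF isogroup (Mcavernosa17089), named for a domain that activates Ras GTPases, lay on the lower side. It had 1361, 604 and 91.0 CPM in WFGB transplants 1 to 3 and 1026 and 1491 CPM in EFGB transplants 1 and 2, against 3454 to 9941 CPM in mesophotic and 1541 to 18073 CPM in shallow controls (log2 fold -2.80 ± 0.92, edgeR adjusted p = 0.0976). Control libraries of low complexity had 1541 to 5474 CPM and those of high complexity 6636 to 18073 CPM, and the left-out transplant had 4828 CPM.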
